A study of Mus musculus with 12 samples.

Results

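Mature CD4+ T cells of the mouse spleen were compared with multipotent progenitors (MPP) of the bone marrow. The comparison was between the 2 arrays titled CD4+ T cell and the 3 arrays titled MPP, which are 5 of the 12 Affymetrix arrays of the series. The other arrays hold haematopoietic stem cells (HSC, 3 arrays) and PreMegE progenitors (4 arrays), which enter the same statistical model and serve here only for values set beside the comparison. All groups are labelled as C57Bl/6 mice of 10 to 12 weeks, with no treatment and no genetic change named. MPP were sorted as lineage-negative marrow cells with cKit, Sca1 and Flt3 on the surface and without CD150. HSC carried CD150 and lacked Flt3, and PreMegE cells carried cKit and CD150 and lacked Sca1, CD105 and CD41. The CD4+ T cells were splenocytes sorted for CD4 and against CD8, B220 and Nk1.1. No CD3 or activation marker is named in that sort. The T cell arrays, and those of PreMegE cells, were taken over from earlier studies by the same group. Study and cell type therefore cannot be told apart in any difference below that involves T cells or PreMegE cells. The MPP samples were sorted separately, but the labels do not tie replicates to animals, so each p-value rests on the spread between the samples of a group, pooled over all 12 arrays, which may be technical.

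MPP are proliferating marrow cells that have lost long-term self-renewal but can still give rise to all blood lineages, and those with Flt3 lean towards lymphoid and granulocyte-monocyte fates. A CD4+ T cell is the product of a long path from such cells through the thymus, where Notch signals, rearrangement of the T cell receptor genes and the transcription factor Bcl11b fix the lineage. In the spleen most CD4+ T cells rest between divisions, survive on interleukin 7 and recirculate between blood and lymphoid organs until an antigen engages the receptor. The comparison therefore sets a fully specialised lymphocyte, of a type that mostly rests, against a dividing, uncommitted progenitor. The labels do not give the resting or activated state of these T cells.

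Where several probe sets name a gene alone, the brightest on average across the 12 arrays stood for it, which gave 18193 genes. Levels are log2 of the deposited RMA intensities, differences are CD4+ T cell minus MPP on the log2 scale with a standard error (SE), and a gene was called higher or lower at a Benjamini-Hochberg adjusted p under 0.05 in limma. Lower quartiles over genes were 3.27 in the T cells and 3.28 in MPP. Means below these quartiles may be background signal, which makes the folds of such genes inexact. Across genes the T cell arrays correlated with each other at r = 0.985, the MPP arrays at 0.994, and T cell with MPP arrays at 0.882 to 0.893. The T cell pair was the noisier: 627 genes differed at least 2-fold between the 2 T cell arrays, against 46 to 66 between pairs of MPP arrays. Control probe sets read beta-actin near both ends of its transcript, and the 3′ signal exceeded the 5′ signal by 0.986 and 1.13 (log2) on the T cell arrays and by 2.36 to 2.68 on the MPP arrays. The part of that gap in the differences below was not tested.

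The cell types differed in a large share of all genes. Of the 18193 genes, 35.5% were called, 15.5% higher in the T cells (2824 genes) and 20.0% lower (3641 genes). At least 2-fold differences were reached by 9.21% of genes in the higher direction and 12.9% in the lower. On 57.8% of genes the 2 T cell values and the 3 MPP values did not overlap. The median difference over all genes was -0.02. In the plot of mean levels called genes lie on both sides of the diagonal. These shares are the background for every count of list members that follows.

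**Figure D1:**
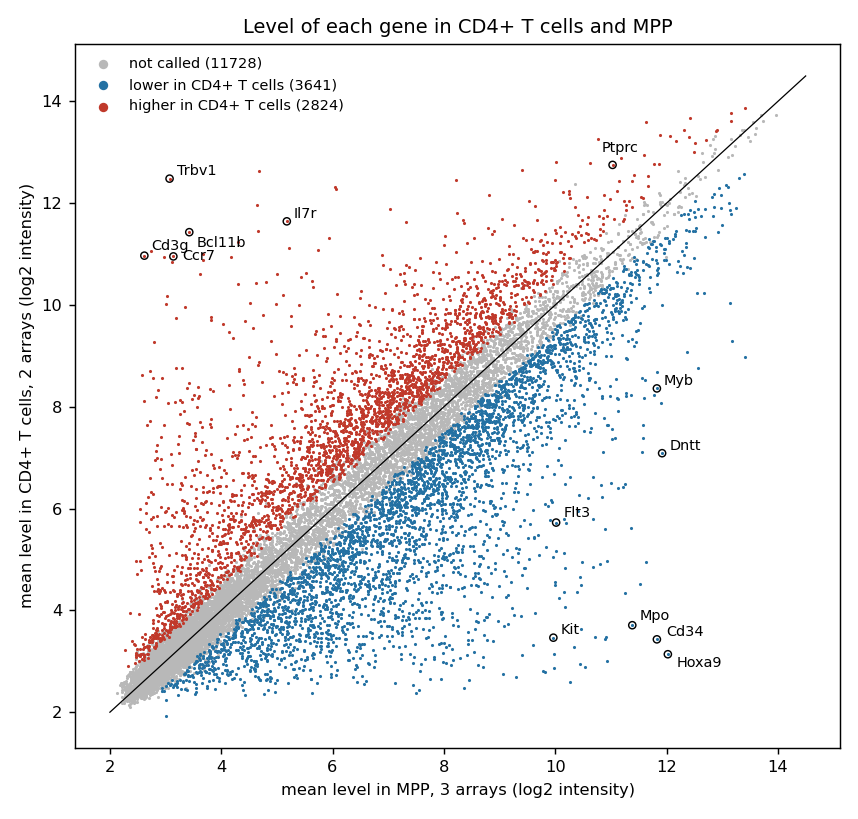
Mean log2 intensity of each of the 18193 genes in MPP (3 arrays, horizontal axis) against CD4+ T cells (2 arrays, vertical axis); colours mark the 2824 genes called higher and the 3641 called lower in T cells, grey the rest, and the line equal levels. Trbv1, Cd3g, Bcl11b and Ccr7 lie high in T cells and near the bottom of the MPP range, and Hoxa9, Cd34, Mpo and Kit the other way round.

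The genes behind the sort were examined first. Cd4 read 9.11 and 9.49 on the T cell arrays and 4.95, 5.13 and 4.60 on the MPP arrays, a difference of 4.40 ± 0.21 (SE, adjusted p = 2.1e-10). Cd8a, a chain of the CD8 coreceptor, did not pass the test, with 4.48 and 4.81 in T cells and 4.46 to 4.78 in MPP. The other CD8 chain, Cd8b1, was nevertheless 2.32 ± 0.20 higher in T cells, at 5.12 and 5.38 against 2.79 to 3.12. Kit, the stem cell factor receptor, fell from 9.89, 10.10 and 9.92 in MPP to 4.03 and 2.89 in T cells. A second Kit probe set gave a smaller fall (-1.16, adjusted p = 4.8e-04). Flt3, the receptor that defines the MPP gate, read 10.10, 9.95 and 10.00 in MPP and 5.65 and 5.80 in T cells (-4.29 ± 0.27, adjusted p = 4.1e-09). Slamf1, which encodes the CD150 that MPP were sorted to lack, was 3.44 ± 0.18 higher in T cells. Ptprc, the pan-leukocyte phosphatase CD45 of which B220 is an isoform, was higher by 1.72 ± 0.20. The labels were thus matched by Cd4, Kit and Flt3 on every array, whereas the genes for Sca1 and Nk1.1 were not analysed here.

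Bcl11b and Cd3g are high in T cells and near the bottom of the range in MPP. Bcl11b, the zinc finger factor that commits thymocytes to the T lineage, read 11.29 and 11.57 in T cells and 3.51, 3.28 and 3.49 in MPP. The Bcl11b difference of 8.0 ± 0.18 is a 257-fold gap (adjusted p = 7.7e-14), and its second probe set by brightness gave 4.77. Cd3g, the gamma chain of CD3, read 11.21 and 10.73 in T cells and 2.48, 2.68 and 2.70 in MPP, where its mean lay under the lower quartile. The Cd3g difference was 8.35 ± 0.18 (adjusted p = 5.0e-14).

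CD3 chains carry the signal of the T cell receptor into the cell, and Cd3g, Cd3d and Cd3e lie beside each other in the genome. Cd3d was at 11.06 and 10.71 in T cells and 3.48 to 3.87 in MPP (7.21 ± 0.17). Cd3e was at 8.23 and 8.69 against 4.97 to 5.31 (3.28 ± 0.20). The promoter windows below are shown because all 3 genes were called higher in T cells and sit in a single cluster. Those of Hoxa9 and Cd34 are shown because these genes fell furthest among those named. Each window runs from 250 bases before to 50 bases after the start site, as given by RefSeq on GRCm38.p6. The Cd3g window is chr9:44980382-44980681 on the minus strand, that of Cd3d is chr9:44981536-44981835 on the plus strand, and that of Cd3e is chr9:45009562-45009861 on the minus strand. Only 854 bases separate the Cd3g and Cd3d windows, whose genes run in opposite directions. The Hoxa9 window is chr6:52227321-52227620 on the minus strand and the Cd34 window chr1:194938571-194938870 on the plus strand. Capitals mark matches, on either strand, to 5 short motifs: TGTGGT of RUNX factors, AGGAAG of ETS factors, the E-box CACCTG of E proteins, AGATAA of GATA factors and the TATA box TATAAA.

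The windows read, 5′ to 3′ on the strand of the gene:
Cd3g: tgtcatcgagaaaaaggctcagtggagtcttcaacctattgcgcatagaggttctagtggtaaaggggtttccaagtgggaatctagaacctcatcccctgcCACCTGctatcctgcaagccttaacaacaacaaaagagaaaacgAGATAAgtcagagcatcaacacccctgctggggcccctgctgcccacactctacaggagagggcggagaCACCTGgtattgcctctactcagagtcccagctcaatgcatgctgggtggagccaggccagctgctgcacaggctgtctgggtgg
Cd3d: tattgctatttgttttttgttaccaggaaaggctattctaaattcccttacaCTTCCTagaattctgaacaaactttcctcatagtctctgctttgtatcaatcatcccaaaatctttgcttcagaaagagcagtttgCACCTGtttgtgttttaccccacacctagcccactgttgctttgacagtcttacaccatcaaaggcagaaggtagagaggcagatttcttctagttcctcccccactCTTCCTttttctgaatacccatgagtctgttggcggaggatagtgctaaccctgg
Cd3e: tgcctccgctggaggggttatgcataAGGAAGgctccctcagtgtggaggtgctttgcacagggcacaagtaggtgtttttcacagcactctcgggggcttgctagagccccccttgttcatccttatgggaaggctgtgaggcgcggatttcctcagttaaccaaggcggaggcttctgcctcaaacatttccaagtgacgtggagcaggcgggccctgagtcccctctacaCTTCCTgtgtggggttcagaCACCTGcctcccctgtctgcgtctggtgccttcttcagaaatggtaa
Hoxa9: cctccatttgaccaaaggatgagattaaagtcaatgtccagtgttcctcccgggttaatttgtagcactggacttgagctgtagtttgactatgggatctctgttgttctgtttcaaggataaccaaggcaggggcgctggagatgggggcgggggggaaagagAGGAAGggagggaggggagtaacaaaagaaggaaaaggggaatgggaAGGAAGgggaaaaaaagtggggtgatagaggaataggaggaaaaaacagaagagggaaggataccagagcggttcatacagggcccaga
Cd34: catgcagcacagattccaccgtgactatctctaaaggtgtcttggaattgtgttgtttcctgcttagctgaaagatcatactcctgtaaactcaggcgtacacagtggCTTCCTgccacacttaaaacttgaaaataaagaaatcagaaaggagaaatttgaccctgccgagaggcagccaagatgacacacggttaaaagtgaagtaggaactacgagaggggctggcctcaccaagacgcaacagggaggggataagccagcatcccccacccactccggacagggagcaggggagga

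The E-box occurred 2 times in the Cd3g window and 1 time each in those of Cd3d and Cd3e, whereas it had 0 matches in the Hoxa9 and Cd34 windows. Over the 27025 genes of the promoter table, counting the first start site listed for each, 20.0% of windows held it. The ETS motif occurred 2 times each in the Cd3d, Cd3e and Hoxa9 windows and 1 time in that of Cd34, against 35.1% of all windows with a match. The GATA motif was matched 1 time, in Cd3g (11.4% of windows). RUNX and TATA motifs were matched in none of these 5 windows (16.9% and 14.2% of all windows). A match describes the letters of the window, not a bound site.

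Other parts of the T cell receptor complex were measured in part. The T cell receptor list had 8 measured genes of 18, and 6 were higher and 0 lower, with a median difference of 3.86 against -0.02 over all genes. Trbv1, a variable segment of the receptor beta chain, had the largest rise among called genes without overlap, with gene models and clone names left out. It read 12.33 and 12.64 in T cells and 2.98, 3.15 and 3.09 in MPP (9.41 ± 0.16, adjusted p = 5.7e-15). A second Trbv1 probe set gave 1.97 (adjusted p = 2.7e-05), so the size of the Trbv1 difference is uncertain. Receptor segments form a multigene family, and whether these probes tell its members apart was not tested. Cd247, the zeta chain that bears most of the receptor's signalling motifs, was at 10.55 and 10.68 against 3.44 to 3.75 (6.99 ± 0.17). A second Cd247 probe set gave a smaller rise of 2.25 (adjusted p = 8.0e-06). Trat1, an adaptor that holds the complex at the membrane, was higher by 4.43 ± 0.20. Trgv4, a variable segment of the gamma chain used by a different T cell lineage, read 4.41 and 6.15 in the T cell arrays and 2.63 to 2.85 in MPP. Ptcra, the surrogate alpha chain of thymocytes, did not pass the test (0.20, adjusted p = 0.526). The probe set named Tcra lay under the lower quartile in both groups, and the constant regions of the alpha and beta chains were not analysed here.

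**Figure D2:**
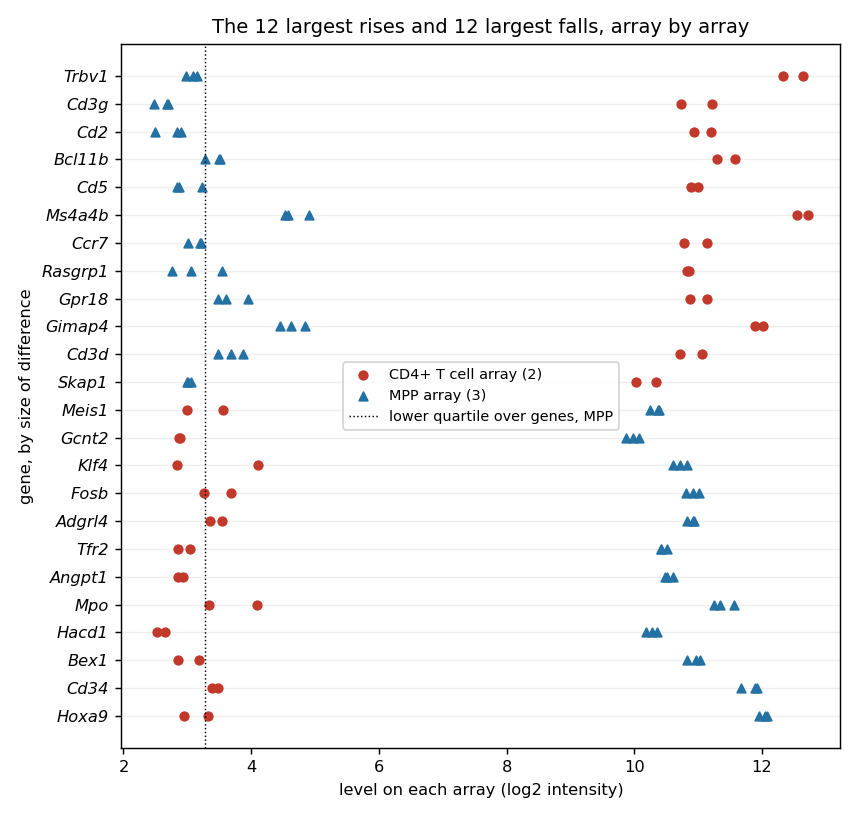
Log2 intensity on each of the 2 CD4+ T cell arrays (circles) and 3 MPP arrays (triangles) for the 12 genes with the largest rise, from Trbv1 to Skap1, and the 12 with the largest fall, down to Hoxa9; the dotted line is the MPP lower quartile over genes. Each pair of groups is separated by a difference of at least 7.06 on the log2 scale, and the lower group lies close to the dotted line for most genes. Gene models and clone names were left out of the ranking.

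Genes that relay the receptor signal were high in T cells almost throughout. Of 39 measured coreceptor and receptor-proximal signalling genes, 33 were higher and 1 lower, with a median of 2.09. Rasgrp1, which couples diacylglycerol to Ras, read 10.85 and 10.82 in T cells and 2.76 to 3.55 in MPP (7.72 ± 0.23). A second Rasgrp1 probe set gave only 0.70 (adjusted p = 0.00909), so the size of the Rasgrp1 difference is uncertain. Skap1, an adaptor that links the receptor to integrins, was higher by 7.16 ± 0.19, with 3.13 on its second probe set. The adhesion molecule Cd2 (11.20 and 10.93 against 2.49 to 2.90) and the receptor's negative regulator Cd5 (11.00 and 10.88 against 2.83 to 3.23) were higher by 8.32 ± 0.18 and 7.96 ± 0.17. Thy1, the classical T cell surface glycoprotein, rose by 6.95 ± 0.26.

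The single member called lower was Zap70, the kinase that binds the phosphorylated receptor. The brightest Zap70 probe set read 5.72 and 6.01 in T cells and 6.41 to 6.78 in MPP (-0.72 ± 0.21, adjusted p = 0.0116). Its second probe set gave the opposite, 2.87 higher in T cells (adjusted p = 1.3e-07), and the first lost its call after quantile normalisation (-0.48, adjusted p = 0.168). No direction is therefore given for Zap70. Bcl10, which joins the receptor to NF-kB, and Dgkz, the diacylglycerol kinase that opposes Rasgrp1, did not pass the test (-0.53 and -0.03). The mean of the Bcl10 probe sets was called lower (-0.44, adjusted p = 0.0229), and its second probe set was not called (-0.21).

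Receptors that add to or restrain the T cell response followed the same direction. Of 25 measured costimulatory and inhibitory receptors, 21 were higher and 1 lower, with a median of 2.75. Cd28, the main costimulator, was at 9.34 and 10.28 in T cells and 4.41, 4.40 and 5.47 in MPP (5.05 ± 0.35). Icos, its relative of activated and follicular helper cells, was higher by 4.84 ± 0.32, and the inhibitory receptor Btla by 4.70 ± 0.26. Tnfrsf25, a death receptor family member that costimulates T cells, rose by 4.93 ± 0.24. Cd40lg, which T cells display after activation, did not pass (0.51, adjusted p = 0.0507, and 0.0369 in a fit of the 5 arrays alone), nor did Havcr2 (Tim-3), whose means lay under the lower quartile in both groups. Cd244a (2B4), a SLAM family receptor, was the only one lower, at 3.14 and 2.83 in T cells against 8.29, 7.87 and 7.77 in MPP (-4.99 ± 0.31), though its second probe set was not called (-0.43, adjusted p = 0.0609).

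Transcription factors of the T lineage leaned to the T cells. Of 26 measured, 14 were higher (53.8%, against 15.5% of all genes), with a median of 0.87. The 5 lower (19.2%) were close to the share of all genes (20.0%). Lef1, the partner of beta-catenin in T cells, was at 8.07 and 8.66 against 3.24 to 3.54 (4.98 ± 0.20). Ets1, a survival factor of resting T cells, was higher by 3.88 ± 0.24, and Bach2, a repressor that keeps lymphocytes from effector fates, by 3.31 ± 0.32. Gata3, needed for CD4+ T cell development, was at 6.94 and 6.98 against 3.90 to 4.08 (2.96 ± 0.15), and Zbtb7b (ThPOK), which directs thymocytes to the CD4 lineage, rose by 1.67 ± 0.20. The E protein inhibitors Id2 (3.37 ± 0.29) and Id3 (2.74 ± 0.24) were higher too, as was Tox (2.18 ± 0.21).

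Several factors used by both cell types did not pass or were lower in T cells. Runx1 read 8.46 and 8.35 in T cells and 8.31 to 8.59 in MPP, and its difference of -0.02 did not pass (95% confidence interval -0.44 to 0.40). Notch1, the receptor that starts T cell fate, did not pass at 10.18 and 10.49 against 9.71 to 9.99 (0.45, adjusted p = 0.213). Notch1 was called higher on its second probe set (0.78, adjusted p = 0.0194), on the mean of its probe sets (0.61, adjusted p = 0.00611) and with the replicate block (0.61, adjusted p = 0.0382). Its target Hes1 fell by 1.96 in T cells, with 4.10 and 4.09 against 5.93 to 6.14. Myb, which drives the division of progenitors and thymocytes, was at 8.47 and 8.25 against 11.84, 11.79 and 11.85 (-3.47 ± 0.16). The E proteins Tcf3 (-0.87 ± 0.29, adjusted p = 0.0263) and Tcf12 (-0.77 ± 0.24, adjusted p = 0.0210) were lower in T cells, but neither was called on its second probe set (-0.73 and 0.52, adjusted p = 0.135 and 0.541). Without T cell replicate 2 the Tcf3 and Tcf12 differences on the brightest probe sets were -0.35 and -0.53 and were not called. Satb1, a chromatin organiser of thymocytes, was high in both and 1.38 ± 0.21 higher in T cells. Ikzf1 (Ikaros), shared by all lymphoid cells, rose by 0.81 ± 0.20, with 0.08 and no call on its second probe set.

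Probe sets disagreed on further factors of the list. Runx3, which marks CD8 rather than CD4 T cells, fell by 2.14 on its brightest probe set and was not called on the next (0.34, adjusted p = 0.152). Ikzf3 (Aiolos) did not pass at 4.77 and 4.66 against 4.42 to 4.69, while its next probe set was 3.95 higher in T cells. Ikzf2 (Helios) did not pass on the first (0.55) and was 2.52 higher on the next. Foxp1, a factor of naive T cell quiescence, was 1.12 ± 0.31 higher on the first and at -0.10 with no call on the next, and its call also ended without T cell replicate 2 (0.75, adjusted p = 0.158). Zeb1, a repressor needed in thymocytes, was 0.82 ± 0.18 higher and then at 0.38 with no call. The calls of Runx3, Ikzf3, Foxp1 and Zeb1 are therefore tied to the probe set chosen, and that of Ikzf2 also to the normalisation and fit.

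Genes of naive T cell traffic and rest rose. Of 23 measured, 17 were higher and 1 lower, with a median of 1.84. Ccr7, the chemokine receptor that brings naive cells into lymph nodes, was at 10.78 and 11.13 in T cells and 3.02 to 3.21 in MPP (7.82 ± 0.18). Il7r, the receptor of their survival cytokine, was at 11.63 and 11.66 against 5.06 to 5.34 (6.47 ± 0.23). S1pr1, which lets lymphocytes leave lymphoid organs, was higher by 2.99 ± 0.27. Foxo1, the factor that maintains Il7r and homing genes, was at 11.04 and 11.06 against 8.14 to 8.37 (2.82 ± 0.19). The Schlafen genes Slfn1 and Slfn2, the second of which keeps T cells quiescent, were higher by 6.49 ± 0.18 and 5.34 ± 0.26 (a second Slfn1 probe set gave -0.14, not called), and the antiproliferative genes Btg1 and Btg2 by 1.84 ± 0.26 and 1.41 ± 0.33. Dapl1 rose by 5.98 ± 0.29, Itgb7 by 4.31 ± 0.18 and Klf3 by 3.67 ± 0.29.

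Not every gene of rest and homing moved. Klf2, the factor that drives S1pr1 and quiescence, read 10.58 and 10.07 in T cells and 9.31, 9.19 and 9.68 in MPP. The Klf2 values did not overlap, but the difference of 0.93 ± 0.62 did not pass (adjusted p = 0.296), and the SD over the 3 HSC arrays in the same fit was 1.76. Klf2 passed in a fit of the 5 arrays alone (adjusted p = 0.00821) and without HSC replicate 1 (adjusted p = 0.00557). Cd69, which retains cells in tissue, did not pass (8.80 and 8.43 against 8.51 to 8.91, adjusted p = 0.828), and Cxcr4 did not pass (0.50, but 1.03 and called without T cell replicate 2). Cd44, the hyaluronan receptor that rises on memory T cells, fell by 1.71, with 8.74 and 8.71 against 10.34, 10.41 and 10.55.

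Genes of helper and regulatory subsets leaned the same way. Of 26 measured, 17 were higher, 0 lower and 9 not called, with a median of 2.29. For 16 of the 26 the MPP mean lay under the lower quartile, so the size of that median is inexact. Cxcr3, a receptor of type 1 helper cells, was at 9.75 and 9.67 against 3.69 to 4.05 (5.88 ± 0.19), and Cxcr5, which leads follicular helper cells to B cells, rose by 5.46 ± 0.22. Maf and Nrp1, the second a surface marker of regulatory T cells, were higher by 4.59 ± 0.22 and 4.86 ± 0.25. Izumo1r (folate receptor 4), another regulatory T cell marker, was higher by 4.45 ± 0.21. Il2ra (CD25) read 6.28 and 5.80 against 2.83 to 3.08 (3.12 ± 0.19), and Ccr6, of type 17 helper cells, rose by 3.62 ± 0.29. Second probe sets of Il2ra (0.61) and Maf (0.52) were not called. In a bulk sample fewer cells of a type and less RNA per cell cannot be told apart, which holds for every subset gene given here.

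The Gimap genes, small GTPases of lymphocyte survival that lie in a single cluster, were higher without exception. All 8 measured were called at least 2-fold higher, with a median of 3.12. Gimap4 was at 11.90 and 12.02 against 4.46 to 4.84 (7.32 ± 0.21). Gimap7 and Gimap3 followed with 6.11 ± 0.20 and 5.90 ± 0.23. Gimap1, Gimap5 and Gimap6 differed least (1.71 ± 0.16, 1.83 ± 0.25 and 1.98 ± 0.19), with MPP levels of 7.69 to 7.91, 5.32 to 6.04 and 8.46 to 8.66. Ms4a4b and Gpr18, a membrane protein and a lipid receptor of T cells, were among the 12 largest rises, with 7.96 ± 0.28 and 7.32 ± 0.22.

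Genes of lymphoid cytokine reception and signalling and those of chemokine receptors both leaned to the T cells. Of 26 measured genes of lymphoid cytokine receptors and of JAK kinases and STAT factors, 14 were higher and 3 lower (median 0.73). Il18r1 (3.80 ± 0.29), Il6st (3.79 ± 0.22), the shared chain of the interleukin 6 family, and Il27ra (2.84 ± 0.20) were higher. The 3 lower were the transcription factor gene Stat5a (-1.42 ± 0.21) and the receptor genes Ifnar2 (-1.08 ± 0.23) and Il18rap (-1.03 ± 0.25). Second probe sets did not bear these out, with -0.43 and -0.52 (not called) for Stat5a and Il18rap and a call of 0.55 the other way for Ifnar2, and Il6st was not called there either (0.39). The calls of Ifnar2 and Il18rap also ended without T cell replicate 2 (-0.69 and -0.74). Il6ra did not pass on its brightest probe set (0.09), while the next gave 3.29. Of 22 chemokine and sphingosine-1-phosphate receptors, 11 were higher and 1 lower (median 0.54). Cxcr6, of activated and tissue T cells, was at 7.66 and 7.61 against 2.51 to 2.94 (4.97 ± 0.17), and S1pr3 was the one lower (-1.37 ± 0.32, with 0.01 on its second probe set).

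Progenitor genes made up the other side of the comparison. Of 37 measured stem and progenitor transcription factors, 27 were lower in T cells and 1 higher, with a median of -2.24. Hoxa9, the homeobox gene of stem and progenitor growth, had the largest fall in the same ranking as Trbv1. It went from 12.08, 12.04 and 11.95 in MPP to 2.95 and 3.33 in T cells (-8.88 ± 0.21, adjusted p = 1.2e-13). Its cofactor Meis1 fell from 10.24 to 10.39 in MPP to 3.00 and 3.55 (-7.06 ± 0.22). Hlf, a stem cell factor, was at 4.47 and 4.53 against 10.42 to 10.54 (-5.97 ± 0.19), and Lmo2, the bridge of the blood stem cell complex, at 5.41 and 5.82 against 11.27 to 11.44 (-5.74 ± 0.18). Bcl11a, the relative of Bcl11b used by progenitors and B cells, was at 4.27 and 4.73 against 9.93 to 10.06 (-5.51 ± 0.21). The pair thus ran in opposite directions, with Bcl11b at 8.0 and Bcl11a at -5.51.

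A few of these factors did not fall. Ldb1, the scaffold that Lmo2 binds, was the one higher in T cells (0.85 ± 0.28, adjusted p = 0.0239), a call that ended without MPP replicate 1 (0.74, adjusted p = 0.0868) and without T cell replicate 2 (0.46, adjusted p = 0.348). Bmi1, the Polycomb protein of self-renewal, did not pass (0.24, adjusted p = 0.551), and its next probe set was lower (-1.06, adjusted p = 0.0135). The probe sets of Meis1 and Hoxa9 had the same sign, but the next brightest gave only -2.70 and -1.29. The size of the Meis1 and Hoxa9 falls is therefore uncertain.

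Most surface molecules of progenitors and growth factor receptors were lower in T cells, and the lists of both share Kit, Flt3, Csf1r, Tek and Tie1. Of 20 measured progenitor surface molecules, 15 were lower and 0 higher (median -2.65). Cd34, the sialomucin of progenitors, was at 3.47 and 3.39 in T cells and 11.68, 11.91 and 11.89 in MPP (-8.40 ± 0.20). The adhesion receptor Adgrl4 was at 3.35 and 3.54 against 10.82 to 10.93 (-7.45 ± 0.20), Cd93 at 3.45 and 3.83 against 10.35 to 10.53 (-6.83 ± 0.21) and Adgrg1 at 3.01 and 3.30 against 9.78 to 10.09 (-6.82 ± 0.22). Procr, the protein C receptor, fell by 4.76 on the log2 scale and Esam, an endothelial adhesion molecule, by 3.00. Cd9 (0.37), Cd82 (0.52) and Prom1 (-0.59) did not pass. Cyclic loess called Cd9 higher (0.46, adjusted p = 0.038), and the 5 arrays alone called Cd82 higher (adjusted p = 0.0343). Emb did not pass either (0.80, adjusted p = 0.0554), but it was called higher in a fit of the 5 arrays alone (adjusted p = 0.00475) and lower on its second probe set (-0.76, adjusted p = 0.0193).

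Of 14 measured haematopoietic growth factor receptors, 9 were lower and 0 higher (median -2.31). Csf3r, the G-CSF receptor, was at 4.62 and 4.87 against 8.07 to 8.62 (-3.52 ± 0.19). Csf2rb, the common beta chain of the interleukin 3 and GM-CSF receptors, fell by 2.60, Il1r1 by 3.27, Tek by 2.95, Tie1 by 2.57 and Igf1r by 2.05. The T cell values of Tek and Tie1 lay under the lower quartile, and second probe sets of Il1r1 (-0.06) and Igf1r (-1.14) were not called. Csf1r, the M-CSF receptor of monocytes, did not pass, with 8.29 and 8.25 in T cells and 8.54 to 8.63 in MPP. Epor, Insr, Il3ra and Csf2rb2 did not pass either, though Csf2rb2 was called lower with trend and robust eBayes settings (-0.86, adjusted p = 0.0499).

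Among the other largest falls were genes outside these groups. Angpt1, the growth factor that binds Tek, was at 2.94 and 2.85 in T cells and 10.47 to 10.61 in MPP (-7.64 ± 0.19). A second Angpt1 probe set gave a smaller fall (-1.26, adjusted p = 2.9e-04). Tfr2, an iron sensor, fell by 7.50, Hacd1, an enzyme of fatty acid elongation, by 7.68, Bex1 by 7.92 and Gcnt2, a glycosyltransferase, by 7.10. In the plot of these genes array by array the 2 T cell values lie at or near the lower quartile, so the folds are not exact.

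Genes of lymphoid priming went both ways. Of 23 measured genes of early lymphoid priming, 7 were higher and 7 lower in T cells, with a median of -0.02. Dntt, the polymerase that adds nucleotides at receptor gene junctions, was at 6.83 and 7.35 in T cells and 11.98, 11.82 and 11.96 in MPP (-4.83 ± 0.26). Sox4 and Mef2c, factors of lymphoid progenitors, fell by 4.62 and 3.76. Il7r, Satb1 and Notch1 above are part of the same list, with Il7r the furthest in the other direction.

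Granulocyte-monocyte genes that MPP already transcribe were lower. Of 22 measured, 14 were lower and 2 higher (median -1.27). Mpo, the peroxidase of primary granules, was at 3.33 and 4.09 in T cells and 11.35, 11.25 and 11.56 in MPP (-7.68 ± 0.66). Prtn3 and Ctsg, proteases of the same granules, fell by 7.01 and 5.41, Plac8 by 3.82 and Lyz1 by 3.54. The 2 higher were Cst7 (1.81 ± 0.17), a cathepsin inhibitor also found in lymphocytes, and Ly86 (1.48 ± 0.32).

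Some chemokine and most immediate early genes were lower in T cells. Of 28 inflammatory chemokine and cytokine genes, 9 were lower and 7 higher in T cells (median -0.02). Cxcl2 was at 2.84 and 2.76 in T cells and 9.82, 9.83 and 9.72 in MPP (-6.99 ± 0.33), Ccl3 fell by 5.69 and Ccl9 by 5.34. In the other direction Ltb, the lymphotoxin that shapes lymphoid tissue, was at 11.38 and 12.22 against 8.13 to 8.33 (3.56 ± 0.24), and Il16 rose by 2.84 ± 0.24. Of 35 immediate early and heat shock genes, 23 were lower and 4 higher (median -1.19). Fosb fell by 7.44, Klf4 by 7.25, Ier3 by 6.68 and Atf3 by 4.75, and Jun was at 6.87 and 6.07 against 10.76 to 10.88. Egr2, a target of the T cell receptor, went the other way, at 8.98 and 8.78 against 4.58 to 4.75 (4.20 ± 0.21). Immediate early genes respond within minutes to cell handling, and tissue, sort and study differed between the groups. Whether these had a part in the values was not tested.

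**Figure D3:**
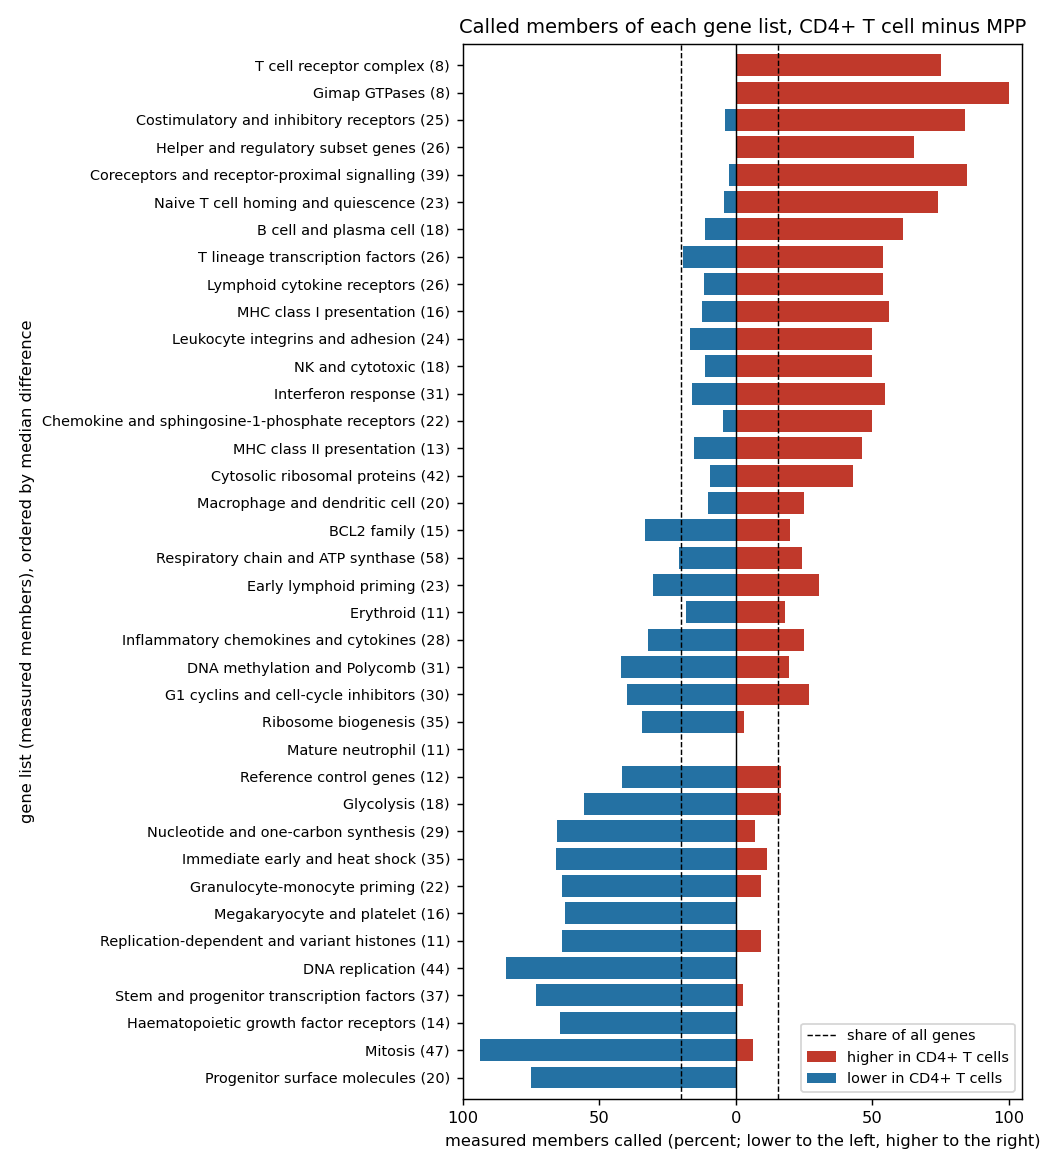
Share of measured members called higher (red, to the right) and lower (blue, to the left) in CD4+ T cells for each of the 38 gene lists, ordered by the median difference, with the number of measured members in brackets; dashed lines give the shares over all genes, 15.5% higher and 20.0% lower. The Gimap genes reach 100% higher, and 44 of 47 mitosis genes are lower.

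Genes of cell division were the most uniform group on the lower side. Of 47 measured mitosis genes, 44 were lower and 3 higher (median -2.58). Aurkb, the kinase of chromosome segregation, was at 3.83 and 3.90 in T cells and 8.59, 8.94 and 8.79 in MPP (-4.91 ± 0.20). Cdc20, which starts anaphase, was at 6.49 and 6.53 against 10.86 to 11.15 (-4.50 ± 0.18), and Ect2 and Ccna2 fell by 4.07 and 3.99. The 3 higher were Smc4 (1.72 ± 0.26), a condensin subunit, Pttg1 (1.36 ± 0.22), securin, and Cdc25b (1.29 ± 0.18). Of 44 DNA replication genes, 37 were lower and 0 higher (median -1.79). Uhrf1 (-4.62 ± 0.20), Cdc6 (-4.56 ± 0.22) and Pole (-4.20 ± 0.25) fell furthest among those named, while the single-strand binding protein gene Rpa1 did not pass at 11.78 and 11.93 against 11.46 to 11.82.

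The genes that hold the G1 phase were mixed, with 8 of 30 higher and 12 lower (median -0.24). Cdk6 was at 7.41 and 7.36 in T cells against 11.01 to 11.14 (-3.69 ± 0.21), and Ccne2 fell by 2.62. Ccnd2, a G1 cyclin of lymphocytes, rose by 1.52 ± 0.24 and Ccng1 by 1.42 ± 0.22. Cdkn1a, the inhibitor p21, was lower in T cells, at 4.91 and 3.96 against 9.34, 9.69 and 9.46 (-5.06 ± 0.36), as was Gadd45a (-2.74 ± 0.24). Of 11 histone and chromatin protein genes, 7 were lower and 1 higher (median -1.35), with H2ax at -2.73 ± 0.18 and Hmgb3 at -4.39 ± 0.19.

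Synthesis and energy genes differed by pathway. Of 29 nucleotide and one-carbon synthesis genes, 19 were lower and 2 higher (median -0.89), with the purine enzyme Pfas at -2.81 ± 0.26, the pyrimidine enzyme Umps at -2.49 ± 0.22 and the ribonucleotide reductase subunits Rrm1 and Rrm2 at -2.45 ± 0.21 and -2.35 ± 0.23. A second Umps probe set was not called (-0.52). Of 18 glycolysis genes, 10 were lower and 3 higher (median -0.79). Hk2, the hexokinase of growing cells, was at 3.68 and 2.95 against 7.99 to 8.21 (-4.77 ± 0.22), and Tpi1 and Pfkm fell by 2.77 and 2.28. The higher ones were Pfkp (2.10 ± 0.25), Aldoa (0.95 ± 0.20) and Ldha (0.86 ± 0.15), so 2 phosphofructokinase isoforms ran in opposite directions.

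Of 58 respiratory chain and ATP synthase genes, 14 were higher (24.1%, against 15.5% of all genes) and 12 lower (20.7%, against 20.0%). Ribosome biogenesis genes were lower in 12 of 35 and higher in 1 (median -0.30), with Dkc1 at -1.74 ± 0.20 (-0.35 and not called on a second probe set) and Fbl at -1.02 ± 0.20. Genes of the cytosolic ribosomal proteins were higher in 18 of 42 and lower in 4 (median 0.355), led by Rps15 (2.80 ± 0.27) and Fau (2.16 ± 0.25). Rpl13a (13.60 and 13.64 against 13.71 to 13.78) and Rps7 (13.70 and 13.78 against 13.66 to 13.72) did not pass, but cyclic loess called both higher (0.40 and 0.56).

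**Figure D4:**
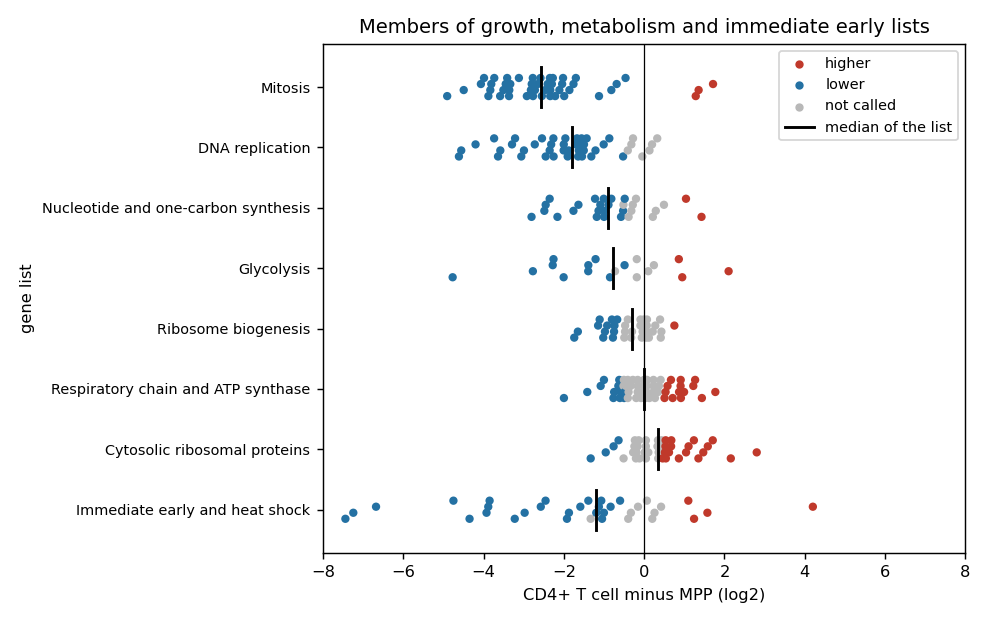
Difference of each measured member, CD4+ T cell minus MPP on the log2 scale, for 8 gene lists in rows; red points were called higher, blue points lower, grey points not called, and the black bar is the list's median. Mitosis and DNA replication genes lie mostly to the left, with medians of -2.58 and -1.79, and the respiratory chain is spread around 0.

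Antigen presentation and interferon genes leaned to the T cells. Of 16 MHC class I genes, 9 were higher and 2 lower (median 0.71), with Nlrc5, their activator (1.33 ± 0.23), and the immunoproteasome subunits Psmb10 (1.32 ± 0.20) and Psmb9 (1.11 ± 0.19) among them. The class I chains H2-K1 and H2-D1 did not pass (0.46 and 0.14), and cyclic loess called both higher (0.90 and 0.53). The mean of probe sets also called both higher (0.73 and 0.49, adjusted p = 0.00134 and 0.0129). H2-K1 was further called higher with a pseudocount of 16, the replicate block, the 5 arrays alone and trend and robust eBayes settings. Quantile normalisation called neither gene. Of 31 interferon response genes, 17 were higher and 5 lower (median 0.56). Ifit1 was at 8.22 and 8.34 against 4.96 to 5.34 (3.19 ± 0.30) and Igtp at 10.24 and 10.47 against 7.10 to 7.63 (2.93 ± 0.19), whereas Oasl2 fell by 2.81.

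Survival and chromatin genes differed member by member. Of 15 BCL2 family genes, 3 were higher and 5 lower. The survival genes Bcl2 and Bcl2l1 did not pass (0.25 and 0.03), although the mean of the Bcl2 probe sets was called higher (0.87, adjusted p = 0.0306). Mcl1 was 0.43 ± 0.15 higher (adjusted p = 0.0379, and 0.804 for the mean of its probe sets), and the death genes Bmf and Bcl2l11 (Bim) rose by 1.73 ± 0.23 and 0.83 ± 0.26. The calls of Mcl1 and Bcl2l11 ended without T cell replicate 1 (adjusted p = 0.183 and 0.315), and that of Mcl1 without any 1 of the 5 arrays. Of 31 DNA methylation and Polycomb genes, 6 were higher and 13 lower. Dnmt3b was at 6.53 and 5.42 against 9.35 to 9.76 (-3.62 ± 0.31), while Cbx7 (2.94 ± 0.24) and Mbd2 (1.98 ± 0.20) were higher. Of 24 leukocyte integrin and adhesion genes, 12 were higher and 4 lower, led by Itgb2, the beta chain of LFA-1, at 11.81 and 11.94 against 7.0 to 7.06 (4.85 ± 0.17). Itgal, the alpha chain of LFA-1, rose by 1.87 ± 0.25.

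Markers of other blood cells were read on the same arrays. B cell and plasma cell genes were higher in the T cell samples in 11 of 18 and lower in 2, with a median of 1.17, and their summed intensity was 6365 and 6891 on the T cell arrays against 1688 to 2341 on the MPP arrays. Most of that sum is Ighm, the immunoglobulin mu chain, which read 12.28 and 12.49 in T cells and 10.38, 9.94 and 10.73 in MPP. Ighm did not pass (2.04 ± 1.40, adjusted p = 0.311) but did in a fit of the 5 arrays alone (adjusted p = 1.6e-04). Pou2af1 (4.50 ± 0.27), Ms4a1 (CD20, 6.45 and 6.76 against 2.88 to 3.04) and Cd22 (2.47 ± 0.30) were higher. The B lineage factors Pax5 (3.46 and 3.37) and Ebf1 (2.85 and 2.76) were near the lower quartile in T cells and did not pass, and Sdc1 of plasma cells was lower. Pax5 was called lower in the fit of the 5 arrays alone (-0.46, adjusted p = 0.0416) and with the replicate block (-0.59, adjusted p = 0.0319). The genes Cd74 (2.50 ± 0.22), H2-Eb1 (2.85 ± 0.28) and H2-Aa (2.17 ± 0.28) of MHC class II, which mouse T cells are known to lack largely, were higher too, in a list with 6 of 13 higher and 2 lower. The part of other cells in these values was not tested.

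Of 18 NK and cytotoxic genes, 9 were higher and 2 lower (median 0.67), with summed intensities of 2000 and 1424 in T cells against 845 to 948 in MPP. Klrd1 (CD94) was at 8.83 and 8.04 against 3.68 to 4.75 (4.29 ± 0.34), Klrg1 rose by 3.86 ± 0.24, Fasl by 3.47 ± 0.25, and Prf1 and Ccl5 by 3.24 ± 0.24 and 3.24 ± 0.26, while second probe sets of Prf1 (-0.08) and Fasl (0.81) were not called. The NK receptor Ncr1 (3.45 and 3.65) and Klre1 (2.97 and 3.33) were near the lower quartile and did not pass. Tyrobp and Nkg7 were lower in T cells (-1.22 and -0.79), calls that ended without T cell replicate 2 (-0.72 and -0.57). The T cell arrays differed on erythroid genes: Alas2 read 7.42 and 9.35, Slc4a1 6.13 and 8.54, and Car2 7.43 and 9.26, each higher on the array of replicate 2.

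Of 11 erythroid genes, 2 were higher and 2 lower, and the T cell sums of 743 and 2006 compare with 1810 to 2281 in MPP. Mature neutrophil genes were called in 0 of 11 by limma, and S100a9, Ltf and Lcn2 were close to the lower quartile on all 5 arrays. Macrophage and dendritic cell genes were higher in 5 of 20 and lower in 2, with sums of 630 and 471 against 566 to 594. Megakaryocyte and platelet genes were lower in 10 of 16 and higher in 0 (median -1.29), among them Mmrn1 (-4.24 ± 0.20, with 0.10 on a second probe set) and Itga2b (-2.73 ± 0.20).

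**Figure D5:**
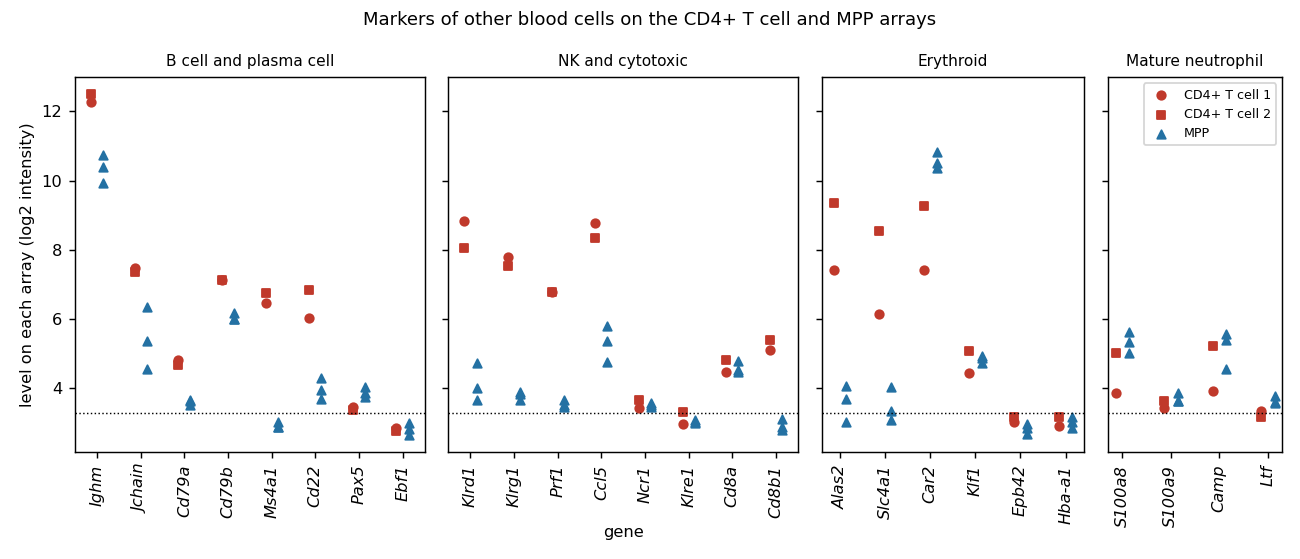
Log2 intensity of marker genes of B and plasma cells, NK and cytotoxic cells, erythroid cells and neutrophils on the CD4+ T cell arrays (circle replicate 1, square replicate 2) and the 3 MPP arrays (triangles); the dotted line is the MPP lower quartile over genes, 3.28. Klrd1, Ms4a1 and Ighm lie higher in T cells, Pax5, Ebf1 and Ncr1 near the dotted line in both, and Alas2 and Slc4a1 differ between the 2 T cell arrays.

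The 2 T cell arrays differed from each other most on a few named genes. Hspa1b, an inducible heat shock protein, read 7.53 and 10.44 in T cells and 8.53 to 8.84 in MPP and was not called (0.26 ± 1.24). Gsdme read 6.85 and 3.62, Myo5a 5.92 and 3.12, and Anxa1 6.19 and 3.65, all under their MPP values of 9.74 to 9.91, 8.66 to 8.91 and 10.74 to 10.89. A second Anxa1 probe set was not called, however (-0.09, adjusted p = 0.825). Noc3l (6.88 and 4.38) and Ints12 (6.40 and 3.85) differed too. The second Noc3l probe set was not called (-0.05, adjusted p = 0.945). The Ints12 difference was -1.45 without T cell replicate 1 and 1.10 without replicate 2. With 2 arrays neither value can be called the outlying one. Of the 9096 genes above the median level, 459 differed at least 2-fold between the T cell arrays, against 22 to 23 between MPP pairs.

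Probe sets of a gene gave a second reading of the comparison. Of the called genes, 3871 had more than 1 probe set. The next brightest was called in the same direction for 1686, not called for 2023, opposite in sign for 870 and called in the opposite direction for 162. Zap70 is among the last. Reference genes used for normalisation were not level either: Actb was 1.26 ± 0.21 higher in T cells (0.45 and not called on its second probe set) and Gusb fell by 1.68, while Eef1a1 (-0.23) and Eef2 (-0.08) did not pass.

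Values of the same T cell arrays against HSC and PreMegE cells were set beside those against MPP. These comparisons share the T cell arrays, and the difference between the first 2 is MPP minus HSC, which has a test of its own. The fourth PreMegE array by title is described as replicate 3, and averaging it with the third left 2971 genes higher and 3773 lower in T cells than in MPP. The difference of Hoxa9 was -8.88 against MPP, -8.42 against HSC and -6.60 against PreMegE, and its MPP minus HSC did not pass (0.47, adjusted p = 0.149). Kit gave -6.50, -7.11 and -6.56. Cd34 gave -8.40, -6.61 and -2.11, with MPP above HSC by 1.79 (adjusted p = 1.1e-05). Flt3 gave -4.29 against MPP but -0.87 and -0.19 against HSC and PreMegE, and Cxcl2 -6.99, -2.41 and 0.26.

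Other genes differed in size or, for Dntt, in direction with the progenitor. Dntt fell by 4.83 against MPP in T cells, yet was 2.00 higher than in HSC and 2.73 higher than in PreMegE cells, with MPP above HSC by 6.83 (adjusted p = 1.3e-10). Slamf1 was 3.44 higher than in MPP and at 0.33 and 0.34 against HSC and PreMegE, where CD150 was part of the gate. Satb1 was 1.38 higher than in MPP, 5.50 higher than in HSC and 4.76 higher than in PreMegE cells, and MPP lay above HSC by 4.12 (adjusted p = 1.6e-09). Csf1r did not pass against MPP (-0.31) and was at 1.36 and 2.75 against HSC and PreMegE. Cd69 and Emb, not called against MPP, were at 3.05 and 4.60 against HSC, with MPP above HSC by 3.16 and 3.81. The medians of the immediate early and heat shock list were -1.19 against MPP, -0.13 against HSC and 1.43 against PreMegE, and those of the mitosis list -2.58, -2.86 and -2.01.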

How the data were processed

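Total RNA of sorted mouse cells was hybridised to Affymetrix arrays, 1 per sample, with 2 CD4+ T cell, 3 MPP, 3 HSC and 4 PreMegE arrays. The deposited values are linear intensity values made by the authors with RMA, per the submitters' processing notes. The RMA version, and which arrays were normalised together, are not given in the sources used here. RMA makes arrays alike in distribution, which can hide a shift common to most genes. Array number, not read depth, limits the precision. Of 45101 probe sets, 34945 carried 1 symbol in the platform annotation, 932 several and 9160 none, and 64 were controls. Intensities were taken to log2, and 1 mean per group was fitted over all 12 arrays with limma 3.58.1 (lmFit, eBayes) in R 4.3.3, with Benjamini-Hochberg adjustment over 18193 genes. The fit was tested on simulated data. Genes named were drawn from, without printing all of, the genes of the sort gates, the 12 largest rises and falls among called genes without overlap, all members of 6 lists, up to 5 called, 3 oppositely called and 2 uncalled members of the others, markers of other cell types, and the 6 genes that differ most between the T cell arrays. Gene models and clone names were left out of the ranking of rises and falls. Older names in the lists were matched to a current symbol only where they belong to 1 gene. Members and lists were chosen with earlier results of these data known. Alternatives covered the normalisation, a pseudocount of 16, low genes, the probe set, the arrays fitted, the replicate block, eBayes settings, a 2-fold threshold and each array left out. Replicate numbers were not used to pair T cells with MPP, since the T cell arrays come from an earlier study. Same-numbered arrays deviated together at r = 0.0432 and 0.0357 over 2 pairs only. The deviations of 2 T cell arrays from their mean mirror each other, so these values cannot decide whether pairs exist.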

Additional observations from a re-analysis of the deposited data

How the results depend on the processing

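Of the 2824 higher and 3641 lower genes, leaving out 1 array at a time left 2415 to 2993 higher and 2968 to 3802 lower. Without a T cell array the lone one left is assumed to vary like the other groups. Numbers moved most on the second probe set by brightness, with 1401 higher and 1455 lower among only 9010 genes tested, and against a 2-fold threshold (limma treat), with 711 higher and 1214 lower. With the replicate number as a block there were 2910 higher and 3609 lower, although the labels do not tie replicates to animals. Quantile normalisation gave 3524 and 3317, cyclic loess 3390 and 3390, and the 5 arrays alone 3042 and 3844.

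Among the 236 genes named, signs turned on the second probe set for Zap70 (2.87), Rpl13a (1.73), Dgkz (0.96), Ifnar2 (0.55), Tcf12 (0.52), Runx3 (0.34), Mmrn1 (0.10), S1pr3 (0.01), Prf1 (-0.08), Foxp1 (-0.10), Slfn1 (-0.14), Emb (-0.76) and Bmi1 (-1.06). With the mean of all probe sets they turned for Zap70 (2.29), Rpl13a (0.58) and Dgkz (0.46), and under cyclic loess for Rpl13a (0.40). Ints12 went from -1.45 without T cell replicate 1 to 1.10 without replicate 2. The cause was not tested. In all, 22 of the named genes changed their call when some 1 array was left out. With 2 T cell arrays from another study, small differences and genes near background are the least secure.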
